A study of Mus musculus with 12 samples.

Results

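The epidermal differentiation complex (EDC) is a cluster of gene families on mouse chromosome 3 that encodes proteins of the outer, cornifying layers of skin. Its genes were taken here by symbol, as Lce, Sprr and S100a genes together with Lor, Ivl, Flg, Flg2, Hrnr, Rptn, Tchh, Tchhl1, Crct1, Crnn and Smcp. This rule found 47 of the 17885 genes in the table of control and Eed iKO HFSCs and 63 of the 21915 genes in the hair cycle table. All 47 were also in the hair cycle table, and 16 members were in that table alone. All 63 lie on chromosome 3 between positions 90511034 and 93564643 (mm10, GENCODE vM21), a span of 3.05 Mb.

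The families differ in what they build. Loricrin (Lor), involucrin (Ivl) and the small proline-rich (Sprr) and late cornified envelope (Lce) proteins are cross-linked under the membrane of a dying keratinocyte to form the cornified envelope. The fused S100 type proteins, with filaggrin (Flg) and trichohyalin (Tchh) among them, join an S100 calcium-binding domain to long repeats and bind or bundle keratin filaments, in the granular layer in the case of filaggrin and in the inner root sheath and hair medulla in the case of trichohyalin. The S100a proteins are small, most of them calcium sensors, and many are made in basal and stem cell layers too. By these roles the hair cycle members were 40 envelope precursors (21 Lce and 16 Sprr genes among them), 7 fused S100 type genes, 15 S100a genes and Smcp, a sperm mitochondrial protein gene that lies within the cluster. The table of control and Eed iKO HFSCs held 27, 6, 13 and 1 of these.

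HFSCs, the stem cells of the hair follicle bulge, were sorted from back skin of C57BL/6J mice by surface CD34, EpCAM and high α6-integrin without Sca1, and their RNA was amplified and sequenced in 12 libraries, 3 in each of 4 groups. The first comparison set HFSCs labelled Eed -/- (Eed iKO) against HFSCs labelled wildtype (control), both at postnatal day 70 (P70), and asked what the loss of EED, a core subunit of the Polycomb complex PRC2, does to their transcripts. The second set wildtype HFSCs in anagen, the growth phase, at P28 to P30 against wildtype HFSCs in telogen, the resting phase, at P50 to P52. Eed iKO mice carry Eed fl/fl and K15-CrePGR, a Cre driven by a bulge promoter and switched on by RU-486, which was applied to shaved skin at 10 mg/ml daily for 7 days from P50. Control mice received ethanol, so that RU-486 and genotype cannot be told apart, and neither can age and phase in the hair cycle libraries. Both sexes were used. The study describes the control and Eed iKO samples as biological replicates from different litters. The labels do not say which animal or litter a library came from, so p-values measure the spread between libraries.

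Recovered reads ranged from 33269583 to 57063586 per library in the table of control and Eed iKO HFSCs, whereas no depth can be given for the hair cycle table. The bulge keratin gene Krt15 was among the high genes in every library (normalized counts of 537242 to 707811 in the first table and 142406 to 422433 in the second). Of the list of 14 bulge stem cell genes, 3 were higher and 2 lower in Eed iKO at an unadjusted p under 0.05 with limma. The shares of all genes were 8.38% and 6.33%. In the hair cycle, at an adjusted p under 0.05, Itga6 rose in anagen (7.22% of all genes did) and Postn and Cd34 fell (4.35% did). Of 9 neutrophil and macrophage genes, Ly6g, Retnlg and Adgre1 were listed at 0 in every hair cycle library and were not in the other table. The other genes of this list were detected. Its summed level was 153, 125 and 173 in control and 252, 202 and 203 in Eed iKO, without overlap. In the hair cycle the sums overlapped (147, 60.2 and 130 in telogen, 74.1, 126 and 69.4 in anagen). Lyz2 was at 0 in control and had 55.9, 65.1 and 0 in Eed iKO, whereas Ptprc overlapped. Among 5 Langerhans and dendritic genes tested, Cd207 was at 0 in control and had 18.3, 13.3 and 23.7 in Eed iKO. H2-Ab1 had 8.33, 48.7 and 54.4 in control and 140, 83.7 and 156 in Eed iKO. Both were higher in Eed iKO without overlap, as were 10.2% of all genes tested (adjusted p = 0.130 and 0.232 with limma). Cd74, H2-Aa and Epcam overlapped. The part of immune cells was not tested. Eed mRNA itself did not separate the groups, with normalized counts of 1084, 1249 and 950.2 in control and 933, 1361 and 1001 in Eed iKO. This level, summed over the gene, gives no check of the deletion, and directions below are those of the libraries labelled Eed iKO.

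Within the cluster, the level per kb of transcript was dominated by S100a genes. In the table of control and Eed iKO HFSCs the highest mean normalized counts per kb over the 6 libraries were 87270.2 for S100a6 (calcyclin), 65448 for S100a4, which binds non-muscle myosin, and 35577 for S100a11. The highest envelope precursors were Sprr1a at 929, Lor at 263 and Lce1m at 173 per kb, and the highest fused S100 type genes were Flg2 at 168, Tchh at 67.7 and Hrnr at 41.0 per kb. The level of Flg per kb was left out, because its gene models are marked as affected by errors in the reference genome.

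The hair cycle table held the same families on top with a different order. S100a11 led at 10043 normalized counts per kb, before S100a4 at 6776 and S100a6 at 2724. Sprr1a at 177, Ivl at 27.3 and Lor at 23.9 per kb were the highest envelope precursors, and Tchh at 60.8, Flg2 at 42.4 and Hrnr at 9.43 per kb the highest fused S100 type genes measured this way. The 2 tables were normalized separately, so their levels are not compared with each other.

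Many members were at or near 0 in the hair cycle libraries. Of the 63 members in the hair cycle table, 19 were listed at 0 in all 6 libraries, 18 of them envelope precursors, and 20 had a value above 0 in every library. Of the 47 members in the other table, 23 had a value above 0 in every library and 41 reached a normalized count of 10 in at least 1 library. That table lists no gene at 0 in every library, whereas the hair cycle table lists 4202 such genes, so the number of members at 0 throughout cannot be compared between the tables. The filter on low values left 31 of 47 members in the control and Eed iKO comparison (16 of 27 envelope precursors, 4 of 6 fused S100 type genes, 10 of 13 S100a genes and Smcp) and 18 of 63 in the hair cycle comparison (5 of 40, 4 of 7 and 9 of 15, without Smcp). A member can pass this filter through the group in which it is high, so the members tested do not stand for the cluster as a whole.

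All members together took 0.204% to 0.458% of the normalized counts of a library in the first table and 0.0744% to 0.17% in the second. S100a genes made up 94.1% to 98.9% of the member counts in control and Eed iKO HFSCs and 95.1%, 96.3% and 96.2% in the telogen replicates. In anagen their share was 75.4%, 80.1% and 92.2%. All 3 anagen libraries were thus below the telogen libraries in their S100a share.

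The families also differed in how far replicates lay apart. On the log2(normalized count + 1) scale the median SD within groups was 2.24 for the 16 envelope precursors tested in control and Eed iKO HFSCs, 0.976 for the 4 fused S100 type genes and 0.383 for the 10 S100a genes, beside 0.338 over all 15008 genes tested. In the hair cycle table it was 0.982, 0.621 and 0.544, beside 0.426 over 13457 genes. The median spread between replicates was thus highest for envelope precursors in both tables.

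Several members share part of their sequence with close copies, which short reads may not tell apart. Of the 63 members, 22 shared no 31-base word with a transcript of another gene and 28 shared over 10% of their words. The share was 96.9% for Sprr2a1, 97.8% for Sprr2a2 and 73.6% for Sprr2a3, so values of these and of most Lce1 genes are uncertain for the single gene. S100a4 shared 49.2% of its words with the read-through gene model Gm42674, and S100a11 shared 48.9%, nearly all with the processed pseudogene Gm12854. Gm42674 itself had normalized counts of at most 6.64 in control and Eed iKO and at most 1.57 in the hair cycle. How shared reads were divided was not tested. Flg shared 0.162% and Tchh 0%. Tchh and Hrnr lie inside the antisense gene Gm37245, and as no source used here says that strand was used in counting, unspliced antisense reads cannot be told from theirs.

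The members past either call below that have an entry in the RefSeq promoter table are Flg, Tchh, S100a4 and Smcp, and their upstream sequences are shown to compare what precedes genes called in different directions. Each line holds the 250 bases before the RefSeq start, 5′ to 3′ on the gene's strand (GRCm38.p6), with motif matches in capitals. They are Flg at chr3:93273296-93273545 on the plus strand, Tchh at chr3:93442080-93442329 on the plus strand, S100a4 at chr3:90603520-90603769 on the plus strand and Smcp at chr3:92589074-92589323 on the minus strand.
Flg: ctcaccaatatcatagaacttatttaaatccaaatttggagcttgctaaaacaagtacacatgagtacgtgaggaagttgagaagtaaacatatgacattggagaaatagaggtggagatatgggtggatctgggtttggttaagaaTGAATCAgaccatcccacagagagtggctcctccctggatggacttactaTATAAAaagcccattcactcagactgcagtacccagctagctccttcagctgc
Tchh: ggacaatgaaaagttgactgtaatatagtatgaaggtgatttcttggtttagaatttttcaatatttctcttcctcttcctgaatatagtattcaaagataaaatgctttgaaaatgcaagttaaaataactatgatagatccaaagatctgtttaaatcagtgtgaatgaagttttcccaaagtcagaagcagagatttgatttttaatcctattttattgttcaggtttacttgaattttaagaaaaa
S100a4: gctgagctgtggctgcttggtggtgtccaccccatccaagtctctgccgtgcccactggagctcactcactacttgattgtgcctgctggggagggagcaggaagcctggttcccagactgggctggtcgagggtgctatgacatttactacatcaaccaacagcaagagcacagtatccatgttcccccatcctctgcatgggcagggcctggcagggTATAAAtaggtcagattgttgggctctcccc
Smcp: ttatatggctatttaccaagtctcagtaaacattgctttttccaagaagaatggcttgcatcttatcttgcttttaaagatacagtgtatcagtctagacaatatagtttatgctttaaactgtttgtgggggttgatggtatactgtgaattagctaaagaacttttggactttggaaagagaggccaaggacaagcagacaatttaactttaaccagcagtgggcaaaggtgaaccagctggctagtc
In Flg the capitals mark a match to the AP-1 pattern TGANTCA, in which any middle base counted. The match is TGAATCA, with its first base at -103 from the start. The capitals also mark a TATA box with its first base at -53. In S100a4 they mark a TATA box with its first base at -31. No motif searched occurred in the windows of Tchh and Smcp.

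Over windows of 300 bases (250 before and 50 after the start), 56 of 63 members had an entry and were set beside all 27025 gene symbols in the RefSeq table. The AP-1 pattern TGANTCA, with any middle base and on either strand, occurred in 18 of 56 member windows (32.1%) and in 7.93% of all windows. It was found in 9 of 14 Sprr windows and in 5 of 7 windows of fused S100 type genes, but in 0 of 20 Lce windows and 2 of 12 S100a windows. The TATA box TATAAA occurred in 24 member windows (42.9%) and in 14.2% of all windows, with 10 of 14 Sprr, 4 of 20 Lce, 4 of 7 fused S100 type and 4 of 12 S100a windows among them.

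The other motifs were rarer. The shorter GRHL motif ACCNGTT, which the full site AACCGGTT contains, was in 12.5% of member windows and 8.2% of all windows, and the KLF4 motif GGGTGTGG in 1.79% and 3.57%. The full GRHL site and the C/EBP motif TTGCGCAA occurred in no member window and in 0.152% and 0.185% of all windows. Member windows held a median of 1 CpG dinucleotide, against 7 in all windows, and their median GC content was 46.7% against 52.7%. These are counts of letters in a window, not of bound sites.

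In the hair cycle comparison Flg, Tchh and S100a14 rose in anagen and S100a4 fell. These 4 of 18 members tested had an adjusted p under 0.05, where 11.6% of all 13457 genes tested did. The rising members were 3 (7.22% of all genes rose) and the falling member was 1 (4.35% fell). Flg, Tchh and S100a4 also passed the thresholds in the methods of the study, a log2 fold change beyond 2 with an unadjusted p under 0.05, which 5.1% of all genes passed. In that count 2 members were higher in anagen (3.33% of all genes) and 1 was higher in telogen (1.77%). Groups of libraries did not overlap for 5 of 18 members, against 33.3% of all genes tested, with Flg, Tchh, S100a14 and Lor higher in anagen (18.1%) and S100a4 higher in telogen (15.2%). In sorted bulk RNA, a change in the number of cells that make a transcript and a change in RNA per cell cannot be told apart.

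**Figure D1:**
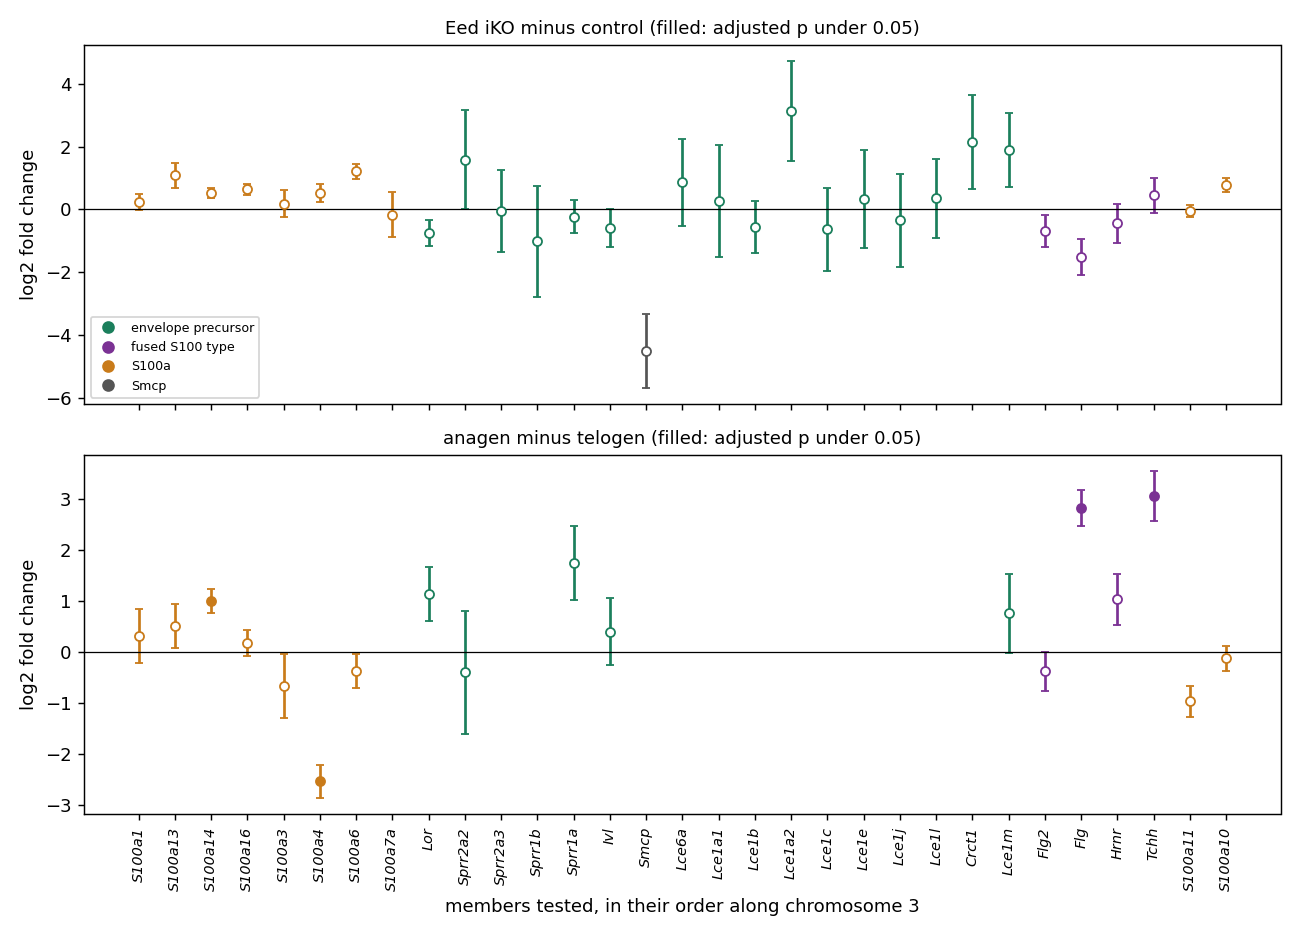
Log2 fold change with its SE (vertical bars) for each member tested, in its order along chromosome 3, for Eed iKO minus control (top) and anagen minus telogen (bottom). Filled points have an adjusted p under 0.05, which 0 of 31 members reached in the top panel and 4 of 18 in the bottom panel, and colours mark the families.

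Among the fused S100 type genes, Flg (ENSMUSG00000102439.4, chr3:93273523-93293686) had normalized counts of 84.2, 67.5 and 47.1 in telogen and 597, 464 and 357 in anagen. The lowest anagen library was thus above the highest telogen library, and limma gave a log2 fold change, here and below on the scale of log2(normalized count + 1), of 2.82 (SE 0.36, 95% interval 2.04 to 3.61, adjusted p = 0.000682). Tchh (ENSMUSG00000052415.5, chr3:93442330-93449077) had 44.7, 56.7 and 119 in telogen and 943, 665 and 295 in anagen. Here too the groups did not overlap, with anagen replicate 3 closest to telogen and telogen replicate 3 closest to anagen, and the log2 fold change was 3.07 (SE 0.48, 95% interval 2.00 to 4.13, adjusted p = 0.00271). Both genes remained past the adjusted threshold in each of the 13 other fits, which included leaving out each library in turn.

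The other members of this family were lower or less separated. Hornerin (Hrnr), a filaggrin-like protein, had 84.7, 42.2 and 69.6 in telogen and 245, 82.3 and 109 in anagen, and its overlapping groups gave a log2 fold change of 1.04 (adjusted p = 0.204). Flg2, the closest relative of filaggrin in the cluster, had 442, 379 and 195 in telogen and 310.5, 290.1 and 165 in anagen, with a log2 fold change of -0.38 (adjusted p = 0.557) and groups that overlapped. Flg and Flg2 lie in the same part of the cluster and only Flg passed a call, but the difference between their fold changes was not tested.

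The other 3 fused S100 type genes were below the filter. Tchhl1, a trichohyalin-like gene next to Tchh, had 0 in each telogen library and 45.6, 6.23 and 1.04 in anagen. Crnn (cornulin) had 0, 0.966 and 0 in telogen and 33.6, 22.2 and 0 in anagen, and Rptn (repetin) stayed below 1 in every library. The anagen values of Tchhl1 rested mostly on replicate 1, and those of Crnn on replicates 1 and 2.

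Some markers of the inner root sheath, but not all, rose in anagen as Tchh did. Krt25 had 6.76, 5.56 and 10.1 in telogen and 189, 97.3 and 25.1 in anagen (adjusted p = 0.0186), and Krt27 and Krt28 rose as well (adjusted p = 0.014 and 0.00503). Of the list of 13 inner root sheath and hair shaft genes, 12 were in the table and none of these was at 0 throughout. Of the 7 tested, 3 rose (7.22% of all genes did) and 1, Msx2, fell (4.35% did), while Krt71, Gata3 and Hoxc13 passed neither call. The summed level of the list overlapped between groups (1759.8, 1260.4 and 1307 in telogen and 2187, 1194 and 1611 in anagen). The suprabasal keratin gene Krt1 had 1509.9, 3190.4 and 1322 in telogen and 2458, 1485 and 676 in anagen, and the summed level of 10 interfollicular and suprabasal genes was 17070.0, 23990.0 and 14620.0 in telogen and 22102, 16404 and 12982 in anagen. Both overlapped between the groups, whereas the suprabasal keratin gene Krt2, below the filter, had 4.84, 16.7 and 6.33 in telogen and 0.789, 0.893 and 1.04 in anagen. The part of other cell types in the values of Flg and Tchh was not tested.

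**Figure D2:**
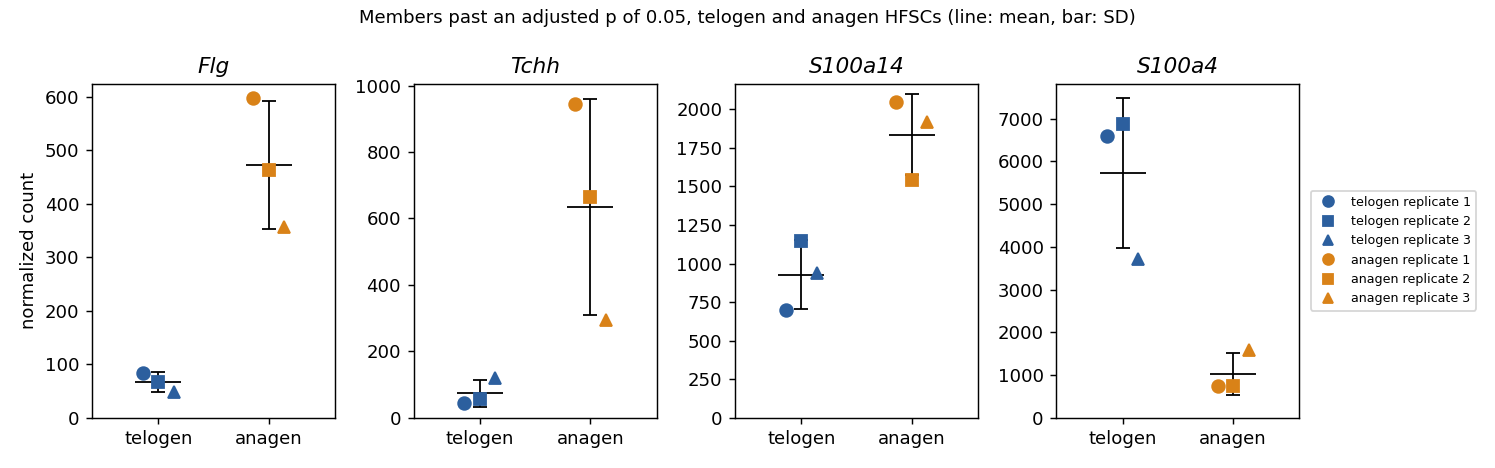
Normalized counts of Flg, Tchh, S100a14 and S100a4 in the 3 telogen and 3 anagen libraries, with the mean (horizontal line) and SD (bar) of each group, on axes that start at 0. For each gene the 2 groups do not overlap, with S100a4 higher in telogen and the others higher in anagen.

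The envelope precursors did not pass either call in the hair cycle comparison. Of the 40, 5 were tested, with a median log2 fold change of 0.76 and 4 of 5 above 0, beside a median of 0.0127 over all genes tested. Lor, the main envelope protein of epidermis, had 25.1, 26.7 and 22.8 in telogen and 84.5, 33.9 and 61.7 in anagen. Its groups did not overlap, but its log2 fold change of 1.15 had an SE of 0.53 (adjusted p = 0.188). Ivl had 58.9, 67.8 and 15.2 in telogen and 90.8, 30.4 and 52.2 in anagen, which overlapped (log2 fold change 0.40, adjusted p = 0.736).

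Sprr1a, a cross-linking protein of the envelope, had 139.6, 90.1 and 13.9 in telogen and 294, 186 and 131 in anagen. Anagen replicate 3 lay just below telogen replicate 1, and the log2 fold change of 1.75 (SE 0.72) had an adjusted p = 0.144. Without telogen replicate 1 that adjusted p was 0.0496, and without telogen replicate 3 it was 0.291 with a log2 fold change of 0.78. Sprr4, Lce1a1 and Lce1f were listed at 0 in all telogen libraries and above 0 in all anagen libraries, at 5.46, 5.11 and 3.29 for Sprr4, 26.0, 2.63 and 5.26 for Lce1a1 and 1.58, 0.879 and 1.05 for Lce1f. All 3 were below the filter, and no fold is given against values of 0. The share of all genes below the filter with such a pattern was not counted. S100a5, also below the filter, separated in the other direction, with 0.926, 1.13 and 1.27 in telogen and 0.815, 0 and 0 in anagen.

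Summed over the 21 Lce genes, normalized counts were 19.4, 23.4 and 2.52 in telogen and 92.1, 36.6 and 19.5 in anagen, and over the 16 Sprr genes they were 173, 157 and 14.6 and 339, 211 and 139. Anagen replicate 1 was the highest library for 7 of the 9 envelope precursors and fused S100 type genes tested, and telogen replicate 3 the lowest for 6 of 9. Both sums overlapped between the groups, with anagen replicate 1 the highest library and telogen replicate 3 the lowest in both. Smcp was below the filter in this table and had 9.41, 0 and 6.24 in telogen and 34.6, 2.82 and 0 in anagen.

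S100a genes moved in both directions. S100a4 (ENSMUSG00000001020.8, chr3:90603771-90606045) had 6584, 6881 and 3719 in telogen and 738, 734 and 1590.3 in anagen, and its log2 fold change was -2.54 (SE 0.33, 95% interval -3.26 to -1.82, adjusted p = 0.000795). The lowest telogen library was above the highest anagen library, and the call remained in each of the 13 other fits. S100a14, an S100 protein of epithelial cells (ENSMUSG00000042306.11, chr3:90526856-90528837), had 696, 1146 and 941 in telogen and 2045, 1541 and 1918 in anagen, again without overlap. The log2 fold change of S100a14 was 1.00 (SE 0.23, 95% interval 0.49 to 1.51, adjusted p = 0.0193). Its adjusted p was 0.104 without anagen replicate 1, 0.0805 without anagen replicate 3 and 0.089 in limma without an intensity trend.

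S100a11, an annexin partner that is itself cross-linked into envelopes, had 6820.4, 8606 and 4698 in telogen and 2679, 2493 and 5497 in anagen. Its groups overlapped through anagen replicate 3 and telogen replicate 3, and its log2 fold change of -0.97 (SE 0.31) had an adjusted p = 0.0687. S100a6 had 2432, 2799 and 1414 in telogen and 1163, 1372 and 2769.5 in anagen, with a log2 fold change of -0.37 (adjusted p = 0.512). For S100a4, S100a6 and S100a11 alike, anagen replicate 3 was the highest anagen library and telogen replicate 3 the lowest telogen library. These 3 genes made up 82.8%, 82.3% and 75.5% of member counts in the telogen replicates and 39.8%, 49.3% and 64.4% in the anagen replicates, where the groups did not overlap.

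The remaining 5 S100a genes tested, S100a1, S100a3, S100a10, S100a13 and S100a16, had log2 fold changes from -0.67 to 0.51 and passed neither call. S100a8 and S100a9, the calprotectin genes of neutrophils, were at 0 in every library and below 2 in every library, respectively. S100a7a, below the filter, had 5.71, 7.34 and 109.5 in telogen and 1.57, 7.66 and 168 in anagen, so that replicate 3 stood far above the others in both groups. Because S100a4 is also made by fibroblasts, their markers are given here. Over the 6 fibroblast genes the summed level was 316, 649 and 461 in telogen and 469, 494 and 628 in anagen, and 4 of the 6 were tested. Col1a1 and Dcn rose in anagen (adjusted p = 0.00928 and 0.0106), whereas Col1a2 had 233, 599.7 and 346 in telogen and 154, 229 and 172 in anagen (log2 fold change -0.997, adjusted p = 0.108) and Pdgfra a log2 fold change of -1.02 (adjusted p = 0.586). Cd34 mRNA, whose surface protein was used in the sort, was also unequal, at 6433, 9159 and 8295 in telogen and 2955, 3233 and 4144 in anagen. The 5 mitosis genes all rose in anagen. Their part in the S100a values was not tested.

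In the comparison of Eed iKO with control HFSCs no member passed an adjusted p of 0.05 with limma, where 0.0267% of the 15008 genes tested did (0.02% higher and 0.00666% lower in Eed iKO). At an unadjusted p under 0.05 there were 7 of 31 members, against 14.7% of all genes. Of these, 5 S100a genes were higher in Eed iKO (8.38% of all genes were) and Smcp and Flg were lower (6.33%). On the recovered reads, DESeq2 called 3 members, S100a6, S100a10 and S100a16, at an adjusted p under 0.05, where it called 4.48% of all genes, and edgeR called 0, where it called 0.0333%. The thresholds in the methods of the study, a log2 fold change beyond 1.5 with an unadjusted p under 0.05, were passed by Smcp and Flg, both lower in Eed iKO (0.926% of all genes passed in that direction), and by no member in the other direction (0.826%). Elsewhere the study states an absolute fold change of at least 1.5 with an adjusted p under 0.05, which no member passed with limma. With DESeq2, the test used by the study, the 3 members named above met the limit on the adjusted p.

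Groups of libraries did not overlap for 7 of 31 members, against 20.2% of all genes tested. These were the same 5 S100a genes, higher in Eed iKO (10.2% of all genes were), and Smcp and Flg, lower in Eed iKO (10% were). The median log2 fold change of the 31 members was 0.24, beside -0.00106 over all genes tested. By family it was 0.11 for the 16 envelope precursors (8 above and 8 below 0), -0.57 for the 4 fused S100 type genes (1 above, 3 below) and 0.52 for the 10 S100a genes (8 above, 2 below).

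Among the S100a genes, S100a6 (ENSMUSG00000001025.8, chr3:90612882-90624181) had 50760.0, 32884 and 31445 normalized counts in control and 102444, 103029 and 62205 in Eed iKO. All Eed iKO libraries were above all control libraries, and its log2 fold change was 1.21 (SE 0.24, 95% interval 0.69 to 1.74, adjusted p = 0.0917). Without Eed iKO replicate 3, the lowest of its group, the adjusted p was 0.014 and the log2 fold change 1.46. S100a13, which takes part in the release of growth factors, had 171, 145 and 388 in control and 459, 442 and 462 in Eed iKO. Control replicate 3 stood above the other control libraries, and the log2 fold change was 1.09 (SE 0.39, adjusted p = 0.232).

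S100a10, S100a14 and S100a16 are named after their values were seen, because they share this separation. S100a10, the partner of annexin A2, had 9689, 6462 and 6652 in control and 12609, 16943 and 9734 in Eed iKO (log2 fold change 0.77, adjusted p = 0.148). S100a16 had 2248, 2264 and 1756 in control and 3534, 3445 and 2809.7 in Eed iKO (log2 fold change 0.65, adjusted p = 0.138). S100a14 had 4206, 3551 and 3479 in control and 5342, 6155 and 4712 in Eed iKO (log2 fold change 0.53, adjusted p = 0.156). For all 3, as for S100a6, Eed iKO replicate 3 was the library nearest to control.

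S100a4 and S100a11, also among the highest members, overlapped between the groups. S100a4 had 43722, 22101 and 17815 in control and 41614, 39362 and 30943 in Eed iKO, with control replicate 1 the highest of all 6 (log2 fold change 0.52, adjusted p = 0.417). S100a11 had 22130.3, 15767 and 17207 in control and 18703, 21676 and 13596 in Eed iKO (log2 fold change -0.04, adjusted p = 0.943, 95% interval -0.47 to 0.38). S100a1, S100a3 and S100a7a gave log2 fold changes from -0.17 to 0.24, and S100a2, S100a5 and S100a8 were below the filter.

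**Figure D3:**
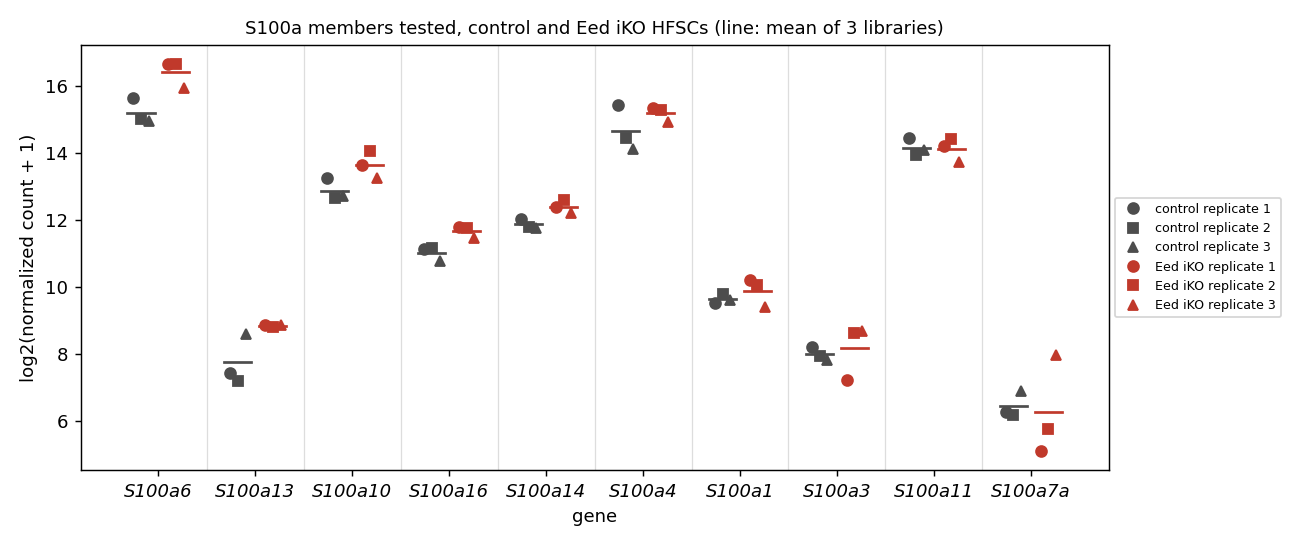
Log2(normalized count + 1) of the 10 S100a genes tested in the 3 control and 3 Eed iKO libraries, ordered by log2 fold change from 1.21 to -0.17, with a line at each group mean and a symbol for each replicate. The Eed iKO libraries lie above all control libraries for S100a6, S100a13, S100a10, S100a16 and S100a14, and the groups overlap for the other 5 genes.

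S100a transcripts are short, and short transcripts as a class were higher in the Eed iKO libraries. Over all genes tested the log2 fold change and the transcript length had a Spearman rho of -0.228. The median log2 fold change was 0.43 for the 689 genes of over 500 and up to 1000 bases and -0.10 for the 5304 genes of over 4000 bases. It was 0.18 for the 2836 genes of over 1000 and up to 2000 bases, the class of S100a14, S100a16 and S100a7a. With this trend with length removed, an alternative chosen after the data were seen, 5 of the 10 S100a genes were above 0 and 5 below and their median log2 fold change was 0.049. S100a6 then had a log2 fold change of 0.73 (adjusted p = 0.127), S100a13 of 0.60, S100a16 of 0.34, S100a10 of 0.27 and S100a14 of 0.19, while S100a4 turned to -0.09. In the hair cycle table the same rho was -0.019.

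The Eed iKO libraries also differed among themselves in mitosis genes. The summed level of the 5 mitosis genes was 1417, 3789 and 1393 in control and 10258, 9898 and 1066 in Eed iKO replicates 1, 2 and 3. Eed iKO replicate 3, which was nearest to control for S100a6, S100a10, S100a14 and S100a16, was thus also the one with the lowest sum. Among control libraries the sum was highest in replicate 2, whereas S100a6, S100a10 and S100a14 were highest in replicate 1 and S100a16 in replicate 2. The part of cycling cells in these values was not tested.

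Flg, lower in Eed iKO, had 346, 938 and 391 in control and 288, 71.7 and 260.0 in Eed iKO. The highest Eed iKO library was below the lowest control library, with Eed iKO replicate 2 far below the rest, and the log2 fold change was -1.51 (SE 0.56, 95% interval -2.76 to -0.27, adjusted p = 0.247). Without Eed iKO replicate 2 it was -0.87 (adjusted p = 0.56) and without control replicate 2 it was -1.06, so that Flg then passed neither call. With all libraries kept, Flg also missed the thresholds of the study in limma without an intensity trend (unadjusted p = 0.0642) and, at log2 fold changes of -1.43 and -1.42, with DESeq2 and edgeR.

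Flg2, Hrnr, Lor and Ivl had the same sign as Flg but overlapped. Flg2 had 2099, 1265 and 818 in control and 1313, 311 and 1280.3 in Eed iKO (log2 fold change -0.68, adjusted p = 0.571). Hrnr had 632, 383 and 386 and 517, 96.9 and 734 (log2 fold change -0.45, adjusted p = 0.787). Without Eed iKO replicate 2 the log2 fold change became 0.44 for Hrnr and 0.0014 for Flg2, so that the sign of both rested on that library.

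Lor had 677, 404 and 613 in control and 284, 195 and 629 in Eed iKO (log2 fold change -0.75, 95% interval -1.68 to 0.17, adjusted p = 0.427). Ivl had 241, 92.1 and 198 and 147, 47.8 and 181 (log2 fold change -0.59, adjusted p = 0.691). Replicate 3 of Eed iKO lay within the range of control for both genes, as did replicate 1 for Ivl. Tchh, which rose in anagen, had 124, 779 and 248 in control and 509.7, 412 and 293 in Eed iKO, all within the range of control (log2 fold change 0.45, 95% interval -0.80 to 1.70, adjusted p = 0.762).

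Sprr1a had 651, 363 and 1474 in control and 776, 301 and 928 in Eed iKO (log2 fold change -0.23, adjusted p = 0.877), and Lce1m 151, 3.25 and 179.5 and 177, 119.5 and 275 (log2 fold change 1.89, adjusted p = 0.486). The fold of Lce1m rested on control replicate 2, without which it was 0.13. The other 12 envelope precursors tested had log2 fold changes from -1.01 (Sprr1b) to 3.14 (Lce1a2), with SEs from 0.83 to 1.79, and none of their groups separated. Rptn reached 8.90 in Eed iKO replicate 3 and was below 2 elsewhere.

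**Figure D4:**
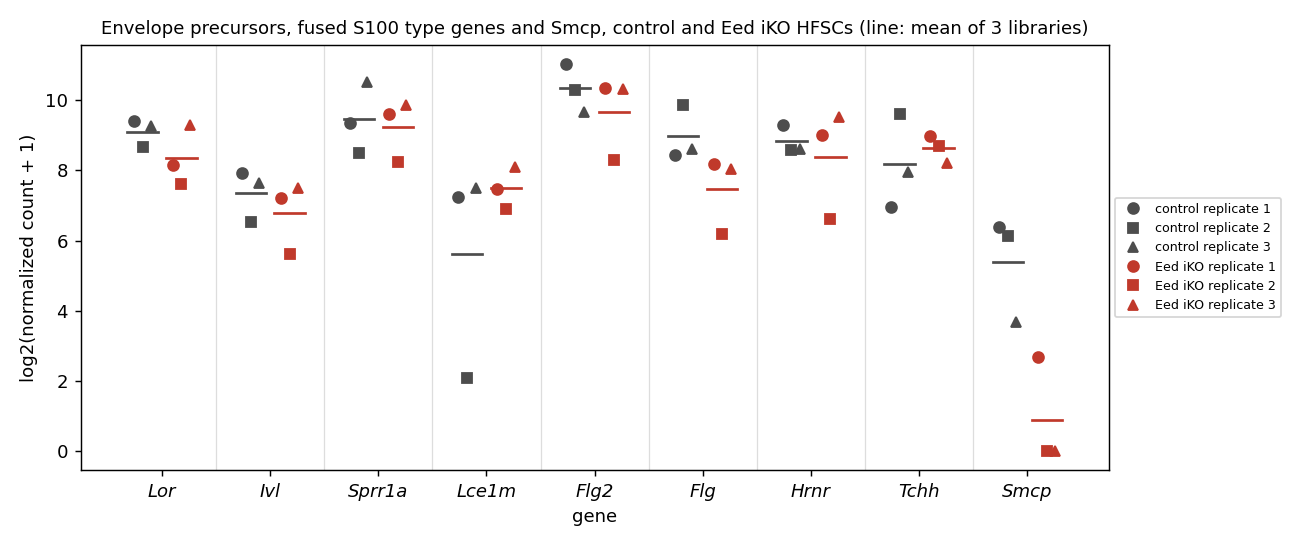
Log2(normalized count + 1) of envelope precursors (Lor, Ivl, Sprr1a, Lce1m), fused S100 type genes (Flg2, Flg, Hrnr, Tchh) and Smcp in the 3 control and 3 Eed iKO libraries, with a line at each group mean and a symbol for each replicate. Groups separate for Flg and Smcp, and Eed iKO replicate 2 is the lowest library for Lor, Ivl, Sprr1a, Flg2, Flg and Hrnr.

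Libraries differed in how often they were the lowest. Of the 13 envelope precursors and fused S100 type genes tested that had a value above 0 in every library, 6 were lowest in Eed iKO replicate 2, 3 in control replicate 1, 2 in Eed iKO replicate 1 and 1 each in control replicates 2 and 3. The other 7 tested had a value of 0 in at least 1 library and were not ranked. Their summed level over the 33 members of both families was 5272, 4418 and 5036 in control and 4163, 2126 and 5439 in Eed iKO, with replicate 2 the lowest of all 6. Keratin 10, a suprabasal marker, had 7484, 5443 and 26842 in control and 10738, 3429 and 45519.7 in Eed iKO, lowest in Eed iKO replicate 2 and highest in replicate 3 of each group. The summed level of the 10 interfollicular and suprabasal genes was 32448, 26145 and 69514 in control and 37642, 25383 and 95323 in Eed iKO. How far suprabasal cells in the sort set the level of these members was not tested.

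Smcp (ENSMUSG00000074435.10, chr3:92583867-92588997) had 81.9, 69.3 and 11.8 normalized counts in control and 5.38, 0 and 0 in Eed iKO. The value in Eed iKO replicate 1 stands for 5 reads, the other Eed iKO libraries had none, and control replicate 3 was the lowest control library. The log2 fold change of -4.50 (SE 1.17, adjusted p = 0.133) depends on the constant added before the logarithm and was -6.75 with a constant of 0.1. The groups did not overlap, and Smcp passed the thresholds of the study in all 6 fits that left out 1 library.

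Of the 18 members tested in both comparisons, 6 were above 0 in Eed iKO and in anagen and 2 below 0 in both, while 10 had opposite signs, 5 in each direction. Flg was lower in Eed iKO and higher in anagen (-1.51 and 2.82). S100a4 was 0.52 and -2.54, S100a14 0.53 and 1.00, and Tchh 0.45 and 3.07. The 2 comparisons share no library, and no member passed the adjusted threshold in both.

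Genes that act with the cluster were counted from lists. In the hair cycle comparison, 6 of 27 cornification genes outside the cluster passed an adjusted p of 0.05, 3 in each direction, beside 11.6% of all genes tested (7.22% rose and 4.35% fell). Of these Evpl (envoplakin), Klk7 (a desquamation protease) and Asprv1 (a protease that processes filaggrin) rose in anagen, with log2 fold changes of 0.78, 1.36 and 1.48. Lgals7, Calml3 and Tgm5, a transglutaminase, fell, with log2 fold changes of -1.26, -1.21 and -0.71. Asprv1 had 214, 326 and 93.6 in telogen and 660.3, 504 and 431 in anagen, without overlap. Among the tested genes of this list, Evpl, Klk7, Cers3, Alox12b and Klk5 were also higher in anagen without overlap, and Tgm5 was higher in telogen. The shares of all genes tested were 18.1% and 15.2% in these directions.

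Among the 20 regulators of epidermal differentiation tested, Fos (a subunit of AP-1), Cebpa and Trp63 were past the same threshold in anagen, which 7.22% of all genes passed in that direction, with log2 fold changes of 1.67, 2.06 and 0.91. Of the 4 neighbours of the cluster that the rule leaves out, 2 were tested and passed neither call. The 3 S100 genes on other chromosomes were below the filter.

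In the comparison of Eed iKO with control, 0 of 29 cornification genes and 0 of 20 regulators tested had an adjusted p under 0.05 with limma, and 8 (4 in each direction) and 1 had an unadjusted p under 0.05, beside 14.7% of all genes tested. By the thresholds of the study Cdsn (corneodesmosin) was lower in Eed iKO, with 878, 803 and 1277 in control and 490.3, 81.0 and 813 in Eed iKO (log2 fold change -1.59, adjusted p = 0.302). Its lowest library was Eed iKO replicate 2, as for Flg. The 3 neighbours of the cluster tested passed neither call, and S100g, the 1 S100 gene on another chromosome that was tested, was higher in Eed iKO by the thresholds of the study (log2 fold change 2.52, adjusted p = 0.317).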

How the data were processed

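RNA-seq of sorted mouse HFSCs was analysed from 2 gene tables with 6 libraries each. The authors aligned reads to mouse transcripts (GENCODE vM20, mm10) with Kallisto 0.42.5, summed them per gene and deposited a normalized signal, gene counts scaled by library size factors from DESeq2, without pooling replicates. The deposited tables also hold the mean signal and columns of the comparison by the authors (log2 fold changes with SEs, a test score, p-values), none of which was used.

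Groups came from the sample labels. Members and gene lists were chosen with earlier results of these data known. Members were named with values if they passed either call, if their groups did not overlap and the log2 fold change was beyond 1, if they were among the 3 highest of a family per kb, or if they were Lor, Ivl, Flg, Flg2, Hrnr, Rptn, Tchh or Smcp. Other members with values were chosen after those were seen.

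Each table was fitted alone in R 4.3.3 with limma 3.58.1 (eBayes with an intensity trend, two-sided) on log2(normalized count + 1), after filterByExpr of edgeR 4.0.16 with a minimum of 10, and p-values were adjusted by Benjamini-Hochberg over all 15008 or 13457 genes tested. For control and Eed iKO libraries, 100.0% of low values were whole multiples (within 0.1) of 1 constant per library, so reads were recovered and tested with DESeq2 1.42.0 and edgeR as well, which called 673 and 5 genes at an adjusted p under 0.05 where limma called 4. Hair cycle values were not whole multiples, so that the depth behind them is unknown. Transcript lengths and positions came from GENCODE vM21 (17879 of 17885 and 21915 of 21915 genes matched by identifier), and promoter sequences from RefSeq (GRCm38.p6). The fit was tested on simulated data. Alternatives were another constant, no filter, TMM scaling, a replicate block, no intensity trend, each library left out and, chosen after seeing the data, removal of the trend with transcript length. A gene of the list of regulators is not reported here.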

Additional observations from a re-analysis of the deposited data

How the results depend on the processing

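In the hair cycle comparison the count of members at an adjusted p under 0.05 was 4 in the fit reported above, with 11.6% of all genes. It was 3 to 6 over all alternatives and 3 to 5 with 1 library left out. The count past the thresholds of the study was 3 in that fit, with 5.1% of all genes, and 3 to 5 with 1 library left out. Without anagen replicate 3, Crnn and Sprr1a were added. With no filter on low values the count was 8, which added Tchhl1, Crnn, Lce1a1, Lce1c and Sprr4. The shares of all genes past these thresholds in the hair cycle alternatives are not given here. In the comparison of Eed iKO with control the count past the thresholds of the study was 2, with 1.75% of all genes. It stayed at 2 with DESeq2 (1.7% of all genes), where Lce1a2 passed in place of Flg. It became 4 with the replicate block (2.21%), 1 in limma without an intensity trend (1.69%) and 1 with edgeR on recovered reads (1.62%). With 1 library left out it was 1 to 6. It was 6 without control replicate 3 (2.66%), 4 without Eed iKO replicate 1 (1.49%) and 1, Smcp, without Eed iKO replicate 2 (1.41%). The count at an adjusted p under 0.05 was 0 with limma, with 0.0267% of all genes. It was 0 to 1 with 1 library left out, the 1 being S100a6 without Eed iKO replicate 3 (1.22% of all genes). It was 3 with DESeq2 (4.48%) and 4 with the replicate block (S100a6, S100a10, S100a16 and Smcp, beside 2.83%). With the length trend removed together with the block it was 3 (S100a6, S100a11 and Smcp, beside 2.07%). The cause of these changes was not tested.

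Same-numbered libraries did not pair. The correlations of their deviations from the group means were 0.039, 0.068 and 0.193 in control and Eed iKO and -0.035, -0.071 and -0.029 in the hair cycle. Not every library correlated best with its own number. The block left the hair cycle counts at 3 and 4.

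Over all genes, calls at an adjusted p under 0.05 in Eed iKO numbered 4, but 424 with the replicate block, 311 with the length trend removed and the block, 673 with DESeq2, 2 with the length trend removed or without an intensity trend, and 1 to 188 with 1 library left out (188 without Eed iKO replicate 3). By the thresholds of the study they numbered 263, but 425 with no filter, and 217 to 449 with 1 library left out. Hair cycle calls at an adjusted p under 0.05 numbered 1556, but 842 without an intensity trend and 590 to 1534 with 1 library left out.

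The sign of S100a4 in Eed iKO reversed to -0.092 with the length trend removed, with or without the replicate block. With 1 library left out, log2 fold changes in Eed iKO ranged from -1.04 to 0.0014 for Flg2, -0.70 to 0.31 for Sprr1a, -0.16 to 1.16 for Tchh, -0.19 to 0.15 for S100a11 and -1.01 to 0.44 for Hrnr, and in the hair cycle from -0.26 to 0.79 for Ivl, so that the sign of each depended on single libraries. Groups of 3 libraries, envelope members with few counts and an unknown hair cycle depth limit what could be detected. DESeq2 and edgeR could not be run on the hair cycle table, whose reads were not recovered.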

Other observations

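Lce and Sprr sums took different places in Eed iKO replicate 2. Summed normalized counts of the 16 Lce genes were 355, 146 and 507 in control and 199, 583 and 694 in Eed iKO, and those of the 8 Sprr genes were 724, 401 and 1734 in control and 837, 337 and 1200.2 in Eed iKO. Eed iKO replicate 2 was thus the lowest library for Sprr genes and the next to highest for Lce genes, while the 3 control libraries had the same order for both, and this was not tested. Of single Lce genes, Lce1d had values of 30.5 and 46.5 in Eed iKO replicates 2 and 3 and at most 5.42 elsewhere, and Lce1i had 38.5 in Eed iKO replicate 2 and at most 13.6 elsewhere, both below the filter. S100a8 had 14.6, 7.58 and 0 in control and was at 0 in all Eed iKO libraries.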
